A study of Mus musculus with 8 samples.

Results

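Granule cells are the principal neurons of the dentate gyrus, and 9 genes that mark them were followed through the hippocampus of 8 mice. The genes Prox1, Dsp, C1ql2, Plk5, Tdo2, Trpc6, Glis3, Calb1 and Stxbp6 were chosen by name as granule cell genes, with earlier results of these data known, and no measured value entered the rule. They are 9 of the 40659 gene identifiers in the count table and 9 of the 17252 genes that passed the filter on low counts. All 9 passed that filter, and each had reads in every library.

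Granule cells receive the main cortical input of the hippocampus and send their axons, the mossy fibres, to mossy cells of the hilus and to CA3 pyramidal neurons. The dentate gyrus is one of the few regions where neurons are still born in adult mice, and newborn cells take up mature granule markers as they age. In tissue from the whole hippocampus these genes are read from a mixture of all its cells. Fewer granule cells and less RNA per granule cell therefore cannot be told apart in any value below.

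PolyA-RNA was sequenced from the hippocampi of 8 male wild-type C57BL/6JRj mice, 4 of which had received the adeno-associated virus (rAAV) hpCTL and 4 the rAAV hp708. Both were delivered to the dorsal and ventral hippocampus at 7 to 8 weeks of age, and tissue was taken 4 weeks after surgery, at 12 to 13 weeks by the labels. The hp708 virus carries a chimeric hairpin for the microRNA miR-708-5p, and hpCTL carries a control hairpin. The human synapsin promoter drives expression, and this promoter is active in neurons of all kinds, not granule cells in particular. All mice of both groups had therefore received virus, and no uninjected mice were analysed here. The animal is the replicate, so the tests measure the spread between these mice.

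The libraries held between 22606824 and 28462428 gene counts. Mir708, the gene of the microRNA precursor, had 0 counts in every library, and polyA-selected RNA thus holds no check of its overexpression. The animal labelled hp708 replicate 1 is listed under hpCTL in the source data of the study for another assay. Its label was kept, and fold changes, list counts and correlations without it are given with the results. Markers of CA1, CA2 and CA3 pyramidal neurons all passed the filter on low counts. Choroid plexus markers, from tissue that adjoins the hippocampus, ranged from 54.5 to 2060 in hpCTL and from 107 to 4400 in hp708, summed in CPM, the counts of a gene scaled to an equal library size after TMM normalization.

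The microRNA and the seed matches found in the 9 genes are shown first, because the seed is the stretch by which a microRNA mainly pairs with its targets. In the mature microRNA, from RefSeq on GRCm38.p6 at chr7:96249450-96249472 on the plus strand, capitals mark the seed, bases 2 to 8. The other sequences are the stretches of the longest annotated 3'UTR in GRCm39 that end in a match, with the match in capitals. The Calb1 site lies at chr4:15907475-15907495 on the plus strand and the Glis3 site at chr19:28238377-28238397 on the minus strand.
mmu-miR-708-5p: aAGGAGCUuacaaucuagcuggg
Calb1: ggatcctaccatctGCTCCTA
Glis3: tcccacccttccagAGCTCCT

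The search looked on the transcript strand for AGCTCCT, which pairs with bases 2 to 8, and for GCTCCTA, which pairs with bases 2 to 7 and ends in A. Both motifs overlap where the longer match is followed by A. Calb1, which encodes the calcium buffer calbindin, held the second motif at base 2726 of a 3322-base 3'UTR. Glis3, which encodes a zinc finger transcription factor, held the first at base 1996 of a 4128-base 3'UTR. The other 7 genes held neither. A match was present in 22.2% of the 9 genes and in 25.0% of 20 other granule cell genes. Of the 14809 tested genes with a 3'UTR, 26.5% held one. The share among the 9 rests on 2 genes, and a match is a description of sequence only.

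No member differed between hp708 and hpCTL beyond the spread between mice. The quasi-likelihood test of edgeR was fitted with 3 surrogate variables, which stand for unlabelled sources of variation between libraries, and p-values were adjusted over all tested genes as a false discovery rate (FDR). The intervals of that fit thus rest on the spread between mice that the surrogate variables leave. Of the 9 genes, 0 had an FDR below 0.05 and 0 had an unadjusted p below 0.05. Among all tested genes 0.0058% and 7.7% did, the latter made up of 2.82% higher and 4.87% lower in hp708. The fitted log2 fold change was above 0 for 6 of the 9 genes with a median of 0.12, against 46.8% of all genes and a median of -0.01. With 3 surrogate variables 4 of the 9 were above 0 when 1 library was left out in 4 cases, with medians of -0.13 without hp708 replicate 3, -0.09 without hp708 replicate 2, -0.05 without hpCTL replicate 2 and -0.04 without hpCTL replicate 1. The groups overlapped in CPM for every member, while 1.51% of all tested genes had groups that did not overlap. Under the 11 other settings that kept all 8 libraries, 0 to 2 members had an unadjusted p below 0.05. Without hp708 replicate 1 and with 3 surrogate variables the number was 4, namely Prox1 and Dsp higher and Tdo2 and Calb1 lower in hp708, with 12.2% of all genes at that threshold and 0 of the 9 at an FDR below 0.05. Without surrogate variables the same 7 libraries gave 2, Prox1 and Dsp, with 3.42% of all genes at that threshold, while Tdo2 stood at -0.18 and Calb1 at -0.21. With 3 surrogate variables the other 5 genes had log2 fold changes of 0.25 for C1ql2, -0.29 for Plk5, 0.23 for Trpc6, 0.14 for Glis3 and 0.10 for Stxbp6.

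**Figure D1:**
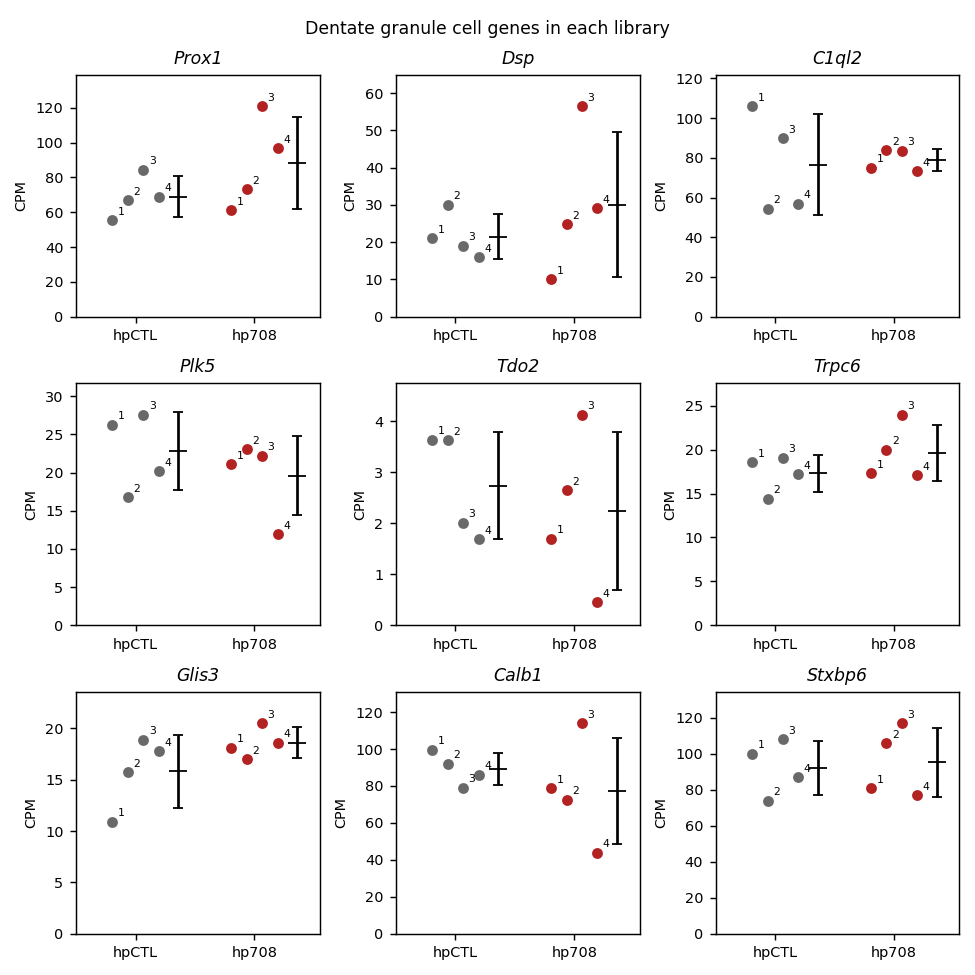
Level of each of the 9 genes in CPM on a linear axis from 0, by group, with 1 point per mouse, its replicate number beside it, and the mean and SD of 4 mice as a bar. hp708 replicate 3 is the highest point for 7 of the 9 genes, and the groups overlap in every panel.

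Prox1 is the transcription factor that sets and keeps granule cell identity (GRCm39 chr1:189850232-189904637). Its CPM was 55.5, 66.8, 84.4 and 69.0 in hpCTL replicates 1 to 4. In hp708 replicates 1 to 4 it was 61.3, 73.4, 121 and 96.7. The highest pair were both hp708 mice, while the other hp708 mice lay within the hpCTL range. The mean was 68.9 ± 11.9 in hpCTL and 88.2 ± 26.6 in hp708 (SD, n = 4), the log2 fold change 0.26 (95% interval -0.03 to 0.54) and the FDR 0.686 by edgeR. An exact permutation test of the group means, two-sided, gave p = 0.257, and such a test of 4 against 4 mice cannot go below 0.0286. The gene's exons share 976 bases, or 10.88%, with the antisense transcript Prox1os, which lay between 2.87 and 4.77 CPM.

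Prox1 passed an unadjusted p of 0.05 under some other settings. Its p was 0.0372 in DESeq2 with 3 surrogate variables and 0.025 in edgeR with surrogate variables taken from TMM-scaled counts. Its fold change was positive in all 27 alternative fits. Without hp708 replicate 3 it was 0.09, and without hp708 replicate 1 it was 0.37 with an FDR of 0.176.

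Glis3 (chr19:28236251-28657667), a Krüppel-like zinc finger factor, was the other transcription factor of the set. In hpCTL its CPM was 10.9, 15.7, 18.9 and 17.8. In hp708 it was 18.1, 17.0, 20.5 and 18.6. The hp708 mice were tightly spaced near the top of the hpCTL range, and hpCTL replicate 1 was well below the other 7 libraries. Glis3 had a log2 fold change of 0.21 (interval -0.04 to 0.45, FDR 0.711 by edgeR), and it was 0.11 without hpCTL replicate 1. Its unadjusted p was 0.0863.

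Calbindin, the product of Calb1 (chr4:15881155-15908085), buffers calcium and fills the cell body and axon of mature granule cells. In hpCTL replicates 1 to 4 its CPM was 99.6, 92.0, 79.0 and 86.2. The hp708 mice had 78.7, 72.6, 114 and 43.9. In hp708 the extremes of all 8 libraries were replicates 3 and 4, and replicates 1 and 2 lay just under the lowest hpCTL value. The SD was 8.73 around a mean of 89.2 in hpCTL and 28.8 around 77.3 in hp708. The fitted log2 fold change was -0.11 (interval -0.65 to 0.44, FDR 0.942 by edgeR).

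The Calb1 estimate moved with the libraries and with the filter. With all 8 libraries it was -0.47 (unadjusted p = 0.0168 and FDR 0.751 by edgeR) when genes needed at least 10 counts in every library. Without hp708 replicate 3 the remaining hp708 values all lay below hpCTL, with 78.7 against 79.0 as the closest pair, and 3.45% of all tested genes had groups that did not overlap in that setting. The log2 fold change was then -0.51 with an unadjusted p of 0.000246 and an FDR of 0.215 by edgeR, and -0.45 without surrogate variables with an FDR of 1. Without hp708 replicate 4 it was 0.03. Without hp708 replicate 1, whose listing conflicts, it was -0.45 with an FDR of 0.284, and -0.21 without surrogate variables.

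Tdo2 (chr3:81864248-81883509) encodes tryptophan 2,3-dioxygenase, an enzyme that opens the tryptophan ring on the way to kynurenine. It was the scarcest member, with 11 to 102 counts per library. The hpCTL mice had 3.64, 3.63, 2.01 and 1.69 CPM. The hp708 mice had 1.70, 2.65, 4.13 and 0.454 CPM. The hp708 mice held both the highest and the lowest value, replicate 4 being far below the rest. Tdo2 had a log2 fold change of -0.19 with an interval from -1.51 to 1.13 (FDR 0.956 by edgeR), so a change of 2-fold either way was not resolved at this depth and spread.

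Of the exon bases of Tdo2, 49.73% also belong to Ctso on the opposite strand, and the strand setting of the counting is not given in the sources used here. Ctso, which encodes a cathepsin protease, lay between 38.1 and 44.5 CPM in all 8 libraries with a log2 fold change of -0.03. Its level was thus flat across libraries where Tdo2 was not. Whether reads of Ctso entered the counts of Tdo2 was not tested. The estimate for Tdo2 was -1.24 when hp708 replicate 3 was left out and -0.04 when hp708 replicate 4 was. Without hp708 replicate 1 it was -0.82 with an FDR of 0.29, but -0.18 with an FDR of 0.999 where no surrogate variables were fitted. With all 8 libraries it was -0.85 when genes needed at least 10 counts in every library.

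C1ql2 (chr1:120268300-120270903) encodes a secreted C1q-like protein of mossy fibre synapses, where it organises glutamate receptors. It had the highest level per length. In hpCTL its CPM was 106, 54.3, 89.8 and 56.8. In hp708 it was 75.0, 83.7, 83.6 and 73.1. The hpCTL mice formed a high and a low pair with all hp708 mice between them, and the coefficient of variation was 32.9% in hpCTL and 7.13% in hp708. For C1ql2 the log2 fold change was 0.12 (interval -0.22 to 0.46, FDR 0.885 by edgeR), and it was -0.05 without hpCTL replicate 2. Without hpCTL replicate 3 it was 0.37 with an unadjusted p of 0.00264 and an FDR of 1 by edgeR.

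Stxbp6 (chr12:44899267-45146587) encodes amisyn, a protein that binds syntaxin and bears on vesicle fusion. Levels were 100, 73.9, 108 and 86.9 CPM in the hpCTL mice. They were 80.9, 106, 117 and 76.9 CPM in the hp708 mice. The values of both groups were spread over the same range. Stxbp6 had a log2 fold change of 0.04 (interval -0.35 to 0.42, FDR 0.97 by edgeR).

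Trpc6 (chr9:8492905-8682359) encodes a cation channel of the plasma membrane that is opened by diacylglycerol. The 4 hpCTL values were 18.6, 14.4, 19.1 and 17.2 CPM. The 4 hp708 values were 17.3, 20.0, 24.0 and 17.1 CPM. Only hp708 replicates 2 and 3 lay above the hpCTL range. Trpc6 had a log2 fold change of 0.18 (interval -0.15 to 0.51, FDR 0.807 by edgeR), and 0.05 without hp708 replicate 3.

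Dsp (chr13:38335230-38382553) encodes desmoplakin, a desmosomal linker to intermediate filaments. Of its exon bases, 5.56% overlap the transcript Gm10129 on the opposite strand. It was measured at 21.1, 30.0, 19.1 and 15.9 CPM in hpCTL mice and at 10.1, 24.8, 56.5 and 29.1 CPM in hp708 mice. The lowest and the highest library were both hp708, and replicate 3 stood far above the next highest. The coefficient of variation was 28.0% in hpCTL and 64.3% in hp708, against 3.98% that counting alone gives at its mean count. Dsp had a log2 fold change of 0.18 with an interval from -0.67 to 1.03 (FDR 0.936 by edgeR). With the same 8 libraries it was 0.48 without surrogate variables, 0.50 with 1 of them and 0.04 when genes needed at least 10 counts in every library.

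The direction of Dsp depended on the library left out when 3 surrogate variables were fitted. When hp708 replicate 1 was left out it was 0.50 with an FDR of 0.0804, the lowest FDR of any member in any fit, and when hp708 replicate 3 was left out it was -0.35 with an FDR of 0.77. Without surrogate variables these values were 0.78 with an FDR of 0.999 and -0.01, and 7 of the 8 fits that left out 1 library were above 0.

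Plk5 (chr10:80191943-80201323) encodes a polo-like kinase family member found in brain. In hpCTL mice it reached 26.3, 16.8, 27.6 and 20.2 CPM, and in hp708 mice 21.1, 23.1, 22.2 and 11.9 CPM. Only hp708 replicate 4 lay outside the hpCTL range, below it. The log2 fold change of Plk5 was -0.18 (interval -0.72 to 0.36, FDR 0.89 by edgeR) and -0.01 without that library.

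**Figure D2:**
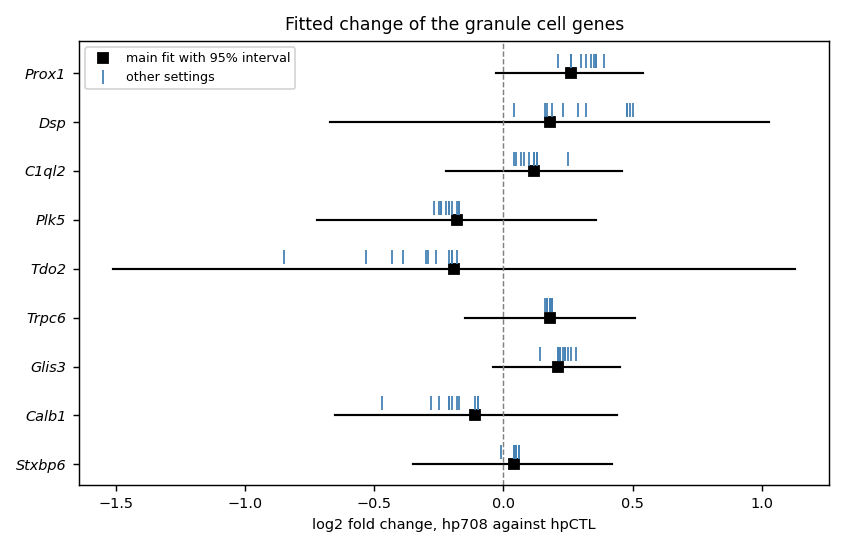
Fitted log2 fold change of hp708 against hpCTL for each gene, as a square with its 95% interval, and as blue ticks the 11 other settings that keep all 8 libraries. Every interval of the 9 includes 0, and Tdo2 and Dsp have the widest.

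Levels of different genes were compared as CPM per kilobase of annotated exon. C1ql2 was highest at 38.6 ± 8.42 (SD over 8 libraries), and its range did not overlap that of the next gene. Stxbp6 at 13.8, Calb1 at 11.7, Prox1 at 8.75 and Plk5 at 6.56 followed, each overlapping its neighbour in range. Dsp at 2.66 and Trpc6 at 2.44 came next, and Glis3 at 1.47 lay below the whole range of Trpc6. Tdo2 was lowest at 0.618.

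The mouse with the highest granule cell gene levels was hp708 replicate 3. It was the highest of the 8 libraries for 7 of the 9 genes, while it was highest for 13.2% of all tested genes. Against the median of the other 7 libraries its members stood at a median ratio of 1.39, from 1.05 for Plk5 to 2.67 for Dsp, and all 9 were above 1. Prox1 stood at 1.76, Tdo2 at 2.06, Calb1 at 1.44 and Stxbp6 at 1.35. The exceptions to the top rank were C1ql2, highest in hpCTL replicate 1, and Plk5, highest in hpCTL replicate 3.

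Among the 20 other granule cell genes, hp708 replicate 3 was highest for 10 and hp708 replicate 4 for 7. Replicate 3 was above the median of the other libraries for 18 of them with a median ratio of 1.26, and replicate 4 for 10 with a median ratio of 1.02. Npnt, an extracellular matrix gene, stood at 1.63 with 27.0 CPM against at most 19.5 elsewhere, and Rfx3, a factor of cilia genes, at 1.44 with 109 CPM against at most 87.6. Igfbp5 at 0.845 and Drd1 at 0.726 were the members of that list below 1. These 4 genes were chosen after their values were seen.

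Markers of other cells in that mouse are given beside this result. Its summed CPM of meningeal fibroblast genes was 114, the lowest of the 8, against 139 to 298 in hpCTL. It was also lowest for mural cell genes at 134, against 149 to 163 in hpCTL, and low for choroid plexus genes at 107. Subiculum genes summed to 114 there, against 108 to 170 in hpCTL, and CA3 genes to 400, against 291 to 391. CA1 genes summed to 771, below the hpCTL range of 789 to 906. The part of these cell types in the granule gene levels was not tested.

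A second hp708 mouse, replicate 4, separated the 9 genes. Tdo2 stood at 0.171 of the median of the other 7 libraries, Calb1 at 0.509 and Plk5 at 0.537, and each was lowest there. Prox1 at 1.40 and Dsp at 1.38 ranked 2 and 3 among the 8 libraries there, and Glis3 stood at 1.05. Stxbp6 at 0.769, C1ql2 at 0.874 and Trpc6 at 0.919 lay between.

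Other cell types also stood apart in replicate 4. CA3 genes summed to 432 CPM there, against 291 to 391 in hpCTL, and astrocyte genes to 2600, against 1690 to 2000. Of the astrocyte genes Gfap had the largest part in that rise, at 1250 against 564 to 732. Aqp4, Aldh1l1 and Fgfr3 also lay above the hpCTL range, Slc1a3 within it and Gja1, at 154 against 177 to 193, below it. The mossy cell sum, at 187 against 150 to 186, lay just above the hpCTL range. Ociad2 made up most of it, at 164 against 114 to 152, while Drd2, Calcrl and Csf2rb2 lay within the hpCTL range. Newborn granule cell genes summed to 67.2 there, the lowest of the 8 libraries, against 80.6 to 92.4 in hpCTL. The low sum rested largely on Calb2, at 4.34 CPM against 17.8 to 25.4 in hpCTL. Calb2 encodes calretinin and is on the mossy cell list too. Dcx, Sox11, Igfbpl1 and Draxin lay within the hpCTL range there, and Mki67 and Top2a above it. Sox4, at 12.6 against 14.3 to 16.0, Eomes and Neurog2 lay below it. Also below the hpCTL range were the sums of CA1 genes at 723, against 789 to 906, subiculum genes at 104, against 108 to 170, mural cell genes at 147, against 149 to 163, and meningeal fibroblast genes at 118, against 139 to 298. Of the fibroblast genes, Dcn was 20.0 against 48.8 to 61.2, while Col1a1 was 23.5, above the hpCTL range of 12.1 to 16.6. Lum and Slc6a13 lay below the hpCTL range, and Col1a2 and Igf2 within it. The single genes of these lists were named after their values were seen. The part of these cell types in the levels of the 9 genes was not tested.

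Genes that mark granule cells along the long axis of the hippocampus also split in replicate 4. Among 3 ventral granule cell genes, Trhr, the thyrotropin-releasing hormone receptor, was 0.743 CPM there against 4.36 to 9.93 in hpCTL. Nr2f2, a nuclear receptor, was 18.6 against 29.8 to 41.6, and Cpne7 was 392 against 407 to 453. The hp708 replicate 2 mouse was also below the hpCTL range for these genes, at 2.00, 25.6 and 316 CPM, while its Tdo2 at 2.65 CPM lay within it and its Calb1 at 72.6 CPM lay below it. Of 4 dorsal genes, Lct, which encodes lactase, was highest there at 51.5 CPM, close to 50.6 in hp708 replicate 3 and against 18.7 to 39.3 in hpCTL. Gsg1l, a gene of AMPA receptor complexes that was named after its values were seen, was 52.1 CPM there against 25.4 to 34.6 in hpCTL. Stra6 at 14.7 and Spata13 at 29.9 lay within the hpCTL range. The summed CPM of the dorsal list, 148 there against 97.2 to 120 in hpCTL, was thus raised by Lct and Gsg1l. The part of dorsal and ventral granule cells in the levels of Tdo2 and Calb1 was not tested.

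**Figure D3:**
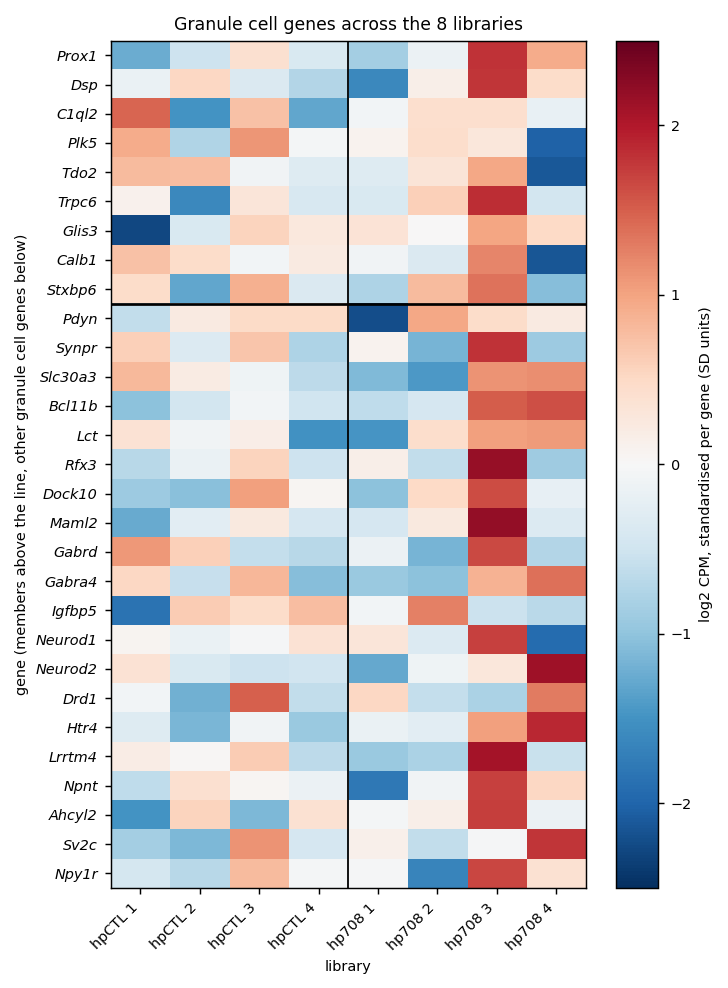
Log2 CPM of the 9 genes (above the line) and of 20 other granule cell genes in each library, standardised per gene to SD units, red high and blue low. The column of hp708 replicate 3 is red for all 9 genes and for 17 of the others, while hp708 replicate 4 is mixed, with Plk5, Tdo2 and Calb1 at their lowest.

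Over all 9 genes the mean standardised level was 0.09, -0.48, 0.38 and -0.34 SD units in hpCTL replicates 1 to 4. In hp708 replicates 1 to 4 it was -0.41, 0.25, 1.19 and -0.68. The hp708 group thus held both ends of the 8 libraries. The coefficient of variation was larger in hp708 than in hpCTL for 7 of the 9 genes, all but C1ql2 and Glis3, and for 56.4% of all tested genes. The number was 6 without hp708 replicate 3, where Trpc6 turned, or without hp708 replicate 4, where Plk5 did. It stayed at 7 without any other library, while the share of all tested genes ran from 46.8% without hp708 replicate 2 to 77.4% without hpCTL replicate 1.

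The 9 genes did not vary as 1 unit across mice. Over the 36 pairs of genes the median Pearson correlation of log2 CPM across the 8 libraries was 0.31, from -0.34 to 0.93, and 0.37 after the group means were removed. Without hp708 replicate 3 the median was -0.03, with 16 of the 36 pairs above 0. The positive median thus rested on that mouse. It was 0.30 without hp708 replicate 1, with 28 pairs above 0. All pairs share the library sizes used for scaling.

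The pair of Trpc6 and Stxbp6 passed the correction over the 36 pairs. Their r was 0.90 (exact permutation p = 0.000322, adjusted 0.0116) and Spearman's rho 0.95 (exact permutation p = 0.00114, adjusted 0.0411) over 8 mice. It was 0.93 without the 2 mice farthest from the median of Trpc6, 0.89 without hp708 replicate 3, 0.91 without hp708 replicate 1 and 0.96 after removal of the group means. The channel and the syntaxin-binding protein were thus high and low in the same mice.

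Tdo2 and Calb1 had the largest r, 0.93 (exact permutation p = 0.00441, adjusted 0.0795), with a rho of 0.79 (exact permutation p = 0.0279, adjusted 0.201). Their r was 0.58 without the 2 farthest mice, and 0.72 without hp708 replicate 4, so it rested in part on the mouse where both were lowest. It stayed at 0.93 without hp708 replicate 1. Prox1 and Calb1, both textbook granule cell markers, had an r of -0.13 (exact permutation p = 0.75) and a rho of -0.14 (exact permutation p = 0.752). Their r was -0.83 without hp708 replicate 3, -0.63 without the 2 farthest mice, -0.15 without hp708 replicate 1 and 0.41 without hp708 replicate 4.

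Among the other tested genes with a mean of at least 1 CPM, 8 were picked as most like the mean standardised level of the 9 by Pearson correlation over the 8 libraries. They were Map3k4 (r = 0.962), Tmem161b (0.931), Ighv1-50 (0.928), Pvt1 (0.922), Cnot7 (0.921), Tiam2 (0.911), Hnrnpu (0.910) and A230072C01Rik (0.908). Map3k4, a stress kinase kinase, was 59.3 CPM in hp708 replicate 3 and 46.1 in replicate 4, its highest and lowest values. Its other 6 libraries lay between these. The genes were taken from the top of all tested genes, so these correlations carry no test.

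**Figure D4:**
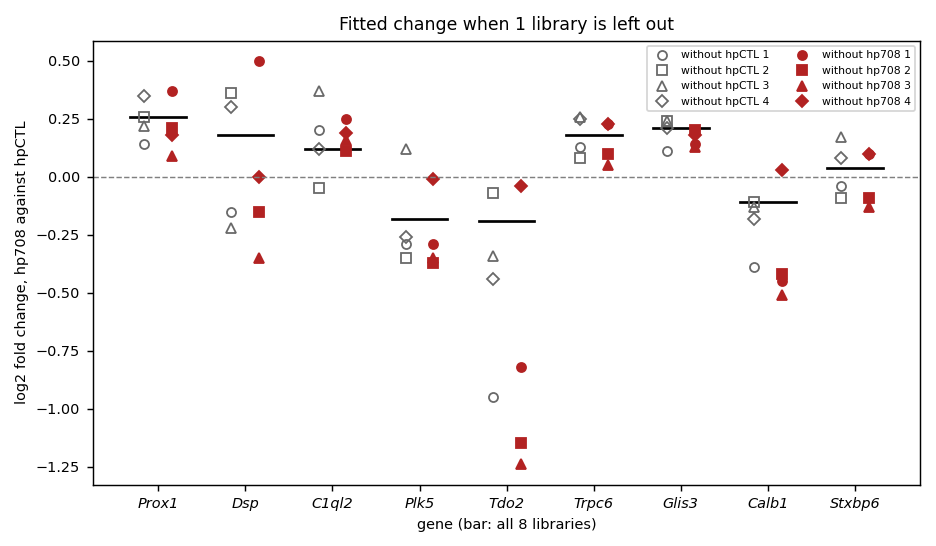
Fitted log2 fold change of each gene when 1 library is left out and the 3 surrogate variables are estimated again (open grey symbols for hpCTL, filled red for hp708), with a black bar for all 8 libraries. Prox1, Trpc6 and Glis3 stay above 0 and Tdo2 stays below 0 throughout, while the other 5 genes cross 0.

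The wider set of granule cell genes held no called gene either. Of the 20 other genes, 16 had a log2 fold change above 0, against 46.8% of all genes, and this number was 11 to 18 over the 11 other settings with all 8 libraries. Without hp708 replicate 3 it was 9, with a median of -0.01, both with 3 surrogate variables and with none. It was 14 without hp708 replicate 1 with 3 surrogate variables and 17 with none. With all libraries their median was 0.06, and 0 had an FDR below 0.05. Unadjusted p was below 0.05 for 2 of the 20, both higher in hp708, against 2.82% of all genes that were higher at that threshold. The number was 1 with the likelihood ratio test or without surrogate variables, where 6.01% and 1.81% of all genes passed in either direction. Htr4, a serotonin receptor, had 13.4, 11.2, 14.1 and 11.7 CPM in hpCTL mice and 13.8, 13.5, 17.9 and 21.5 CPM in hp708 mice. It was highest in hp708 replicates 3 and 4, and its log2 fold change was 0.37 (SE 0.11, FDR 0.514 by edgeR). Bcl11b, a transcription factor, was 123, 131, 136 and 130 CPM in hpCTL and 128, 131, 162 and 163 in hp708. Again replicates 3 and 4 stood above the rest, with a log2 fold change of 0.14 (SE 0.05, FDR 0.595 by edgeR).

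Genes of the dorsal and ventral granule cells had medians on opposite sides of 0, with no gene called. Of 4 dorsal genes 3 were above 0 with a median of 0.12, and of 3 ventral genes 0 were, with a median of -0.20. Of the ventral genes, 2 had an unadjusted p below 0.05, both lower in hp708, when genes needed at least 10 counts in every library (median -0.57) or when surrogate variables came from TMM-scaled counts (median -0.35), where 5.72% and 13.3% of all genes passed in either direction. Without hp708 replicate 1 all 3 did, again lower in hp708, with 3 surrogate variables (median -0.67), where 12.2% of all genes passed, and 0 did without them (median -0.44). With 3 surrogate variables leaving out hpCTL replicate 2 gave a ventral median of -0.01, and leaving out hp708 replicate 4 gave -0.07. With the same number of surrogate variables 2 of the 3, both lower, had an unadjusted p below 0.05 without hpCTL replicate 1 or 4 or without hp708 replicate 2 or 3, where the share of all genes was 9.67%, 6.09%, 12.0% and 8.02% in turn. Of the dorsal genes 1 had such a p, higher in hp708, without hp708 replicate 1, 2 or 3 with 3 surrogate variables (12.2%, 12.0% and 8.02% of all genes in turn). The dorsal median was 0.13 without hp708 replicate 1 and -0.05 without hp708 replicate 4, both with 3 surrogate variables. Of 10 genes of newborn granule cells and their progenitors, 5 were above 0 with a median of 0.00. With all 8 libraries none had an unadjusted p below 0.05, and 1 did without hpCTL replicate 3 with 3 surrogate variables, where 2.98% of all genes passed. Igfbpl1, a gene of immature neurons, had the lowest, 0.189, with a log2 fold change of 0.62 (SE 0.43). Of 5 mossy cell genes 3 were above 0, with a median of 0.09. The newborn median without hp708 replicate 1 was 0.10 with 3 surrogate variables and -0.01 without them, and the mossy cell median 0.13 and -0.05.

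CA3 pyramidal neurons, the targets of granule cells, had the list with most members at an unadjusted p below 0.05 when 3 surrogate variables were fitted. All 7 CA3 genes were above 0 with a median of 0.26, and 5 had a p below 0.05, against 2.82% of all genes that were higher at that threshold, none with an FDR below 0.05. The number depended on the surrogate variables, being 0 without them or with 1, and 1 with 2. In these fits 1.81%, 3.44% and 4.1% of all genes passed in either direction, in turn. All 7 stayed above 0 in the 11 other settings with all 8 libraries. Leaving out 1 library gave 0 to 5 with 3 surrogate variables, 0 being without hpCTL replicate 2, where 7.04% of all genes passed in either direction. Without surrogate variables it likewise gave 0 to 5, 5 being without hpCTL replicate 1, where 1.99% did. Leaving out hp708 replicate 1 gave 5 with 3 surrogate variables (12.2% of all genes) and 2 without them (3.42%). Bok, which encodes a Bcl-2 family protein, was 79.0, 53.1, 50.3 and 41.2 CPM in hpCTL and 48.3, 72.9, 70.7 and 86.1 in hp708. The groups overlapped, with hpCTL replicate 1 among the high values and hp708 replicate 1 among the low, and the log2 fold change was 0.29 (SE 0.09, FDR 0.549 by edgeR). Homer3, a postsynaptic scaffold gene, had 0.33 (FDR 0.573) and Nectin3, an adhesion gene, 0.14 (FDR 0.594).

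Subiculum genes lay on the other side. All 6 were below 0 with a median of -0.36, and 2 had an unadjusted p below 0.05, against 4.87% of all genes that were lower at that threshold, none with an FDR below 0.05. The number was 1 to 4 in the 11 other settings with all 8 libraries, 0 to 2 with 1 library left out and no surrogate variables, and 2 to 5 with 3 of them, where leaving out hp708 replicate 1 gave 5. In these fits 1.58% to 13.3%, 1.37% to 3.42% and 2.98% to 12.2% of all genes passed in either direction, in turn. The subiculum median ran from -1.09 to -0.35 over those 11 settings and from -1.34, without hp708 replicate 1, to -0.19, without hpCTL replicate 3, with 1 library left out. Nts, which encodes neurotensin, was 5.68, 5.55, 6.97 and 7.44 CPM in hpCTL and 5.58, 3.87, 1.75 and 1.53 in hp708. The lowest values were those of hp708 replicates 3 and 4, the mice highest in Prox1, and the log2 fold change was -1.12 (SE 0.24, FDR 0.382 by edgeR). Slc17a6, a vesicular glutamate transporter gene, had -0.75 (SE 0.17, FDR 0.386 by edgeR). CA1 genes had a median of -0.06 with 2 of 7 lower at an unadjusted p below 0.05, and CA2 genes 0.05 with 1 of 7 higher. Over the 11 other settings with all 8 libraries these numbers were 1 to 2 and 0 to 2. With 3 surrogate variables and hp708 replicate 1 left out, 4 CA1 genes were lower (median -0.22) and 3 CA2 genes higher (median 0.15), with 12.2% of all genes at that threshold. Leaving out another library in that fit gave 0 to 2 CA1 genes lower, 0 being without hpCTL replicate 3, and 0 to 2 CA2 genes higher. Without hp708 replicate 2 or 3, 2 CA2 genes were lower, with medians of -0.03 and -0.01, where 12.0% and 8.02% of all genes passed in either direction.

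Markers of the other cell types had medians between -0.10 and 0.08, apart from choroid plexus at 0.29. Interneuron genes, given because interneurons, among other cells, also make calbindin, had a median of 0.03. Of these Vip and Sst, 2 of 8, were lower at an unadjusted p below 0.05, against 4.87% of all genes lower at that threshold. Over the 11 other settings with all 8 libraries 1 to 3 were lower, where 1.58% to 13.3% of all genes passed in either direction. Medians were -0.10 for thalamus, 0.05 for astrocytes, 0.06 for the oligodendrocyte lineage, 0.08 for mural cells and 0.05 for meningeal fibroblasts, with 0 genes at an unadjusted p below 0.05 when 3 surrogate variables were fitted to all 8 libraries.

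These lists moved with the settings. Up to 2 astrocyte genes and 2 oligodendrocyte genes were higher at that threshold in the 11 other settings with all 8 libraries, where 1.58% to 13.3% of all genes passed in either direction. With 1 library left out and 3 surrogate variables the most were 3 astrocyte genes, without hp708 replicate 2, and 4 oligodendrocyte genes, without hp708 replicate 1, with 12.0% and 12.2% of all genes at that threshold. The oligodendrocyte median was then 0.35, and it was -0.05 without hpCTL replicate 2 and 0.33 with at least 10 counts in every library. The choroid plexus median ran from 0.12 to 0.90 over those 11 settings. Without hp708 replicate 1 all 6 choroid plexus genes were below 0 with a median of -0.58, and without hpCTL replicate 2 all 6 were above 0 with a median of 0.88 and 5 at that threshold, against 7.04% of all genes, both with 3 surrogate variables. Without surrogate variables the choroid plexus median was 0.13 to 1.39 with 1 library left out. Without hp708 replicate 1 and with 3 surrogate variables the medians were -0.06 for interneurons, -0.09 for thalamus, 0.02 for astrocytes, -0.03 for mural cells and -0.14 for meningeal fibroblasts. The part of regional composition in the values of the 9 genes was not tested.

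**Figure D5:**
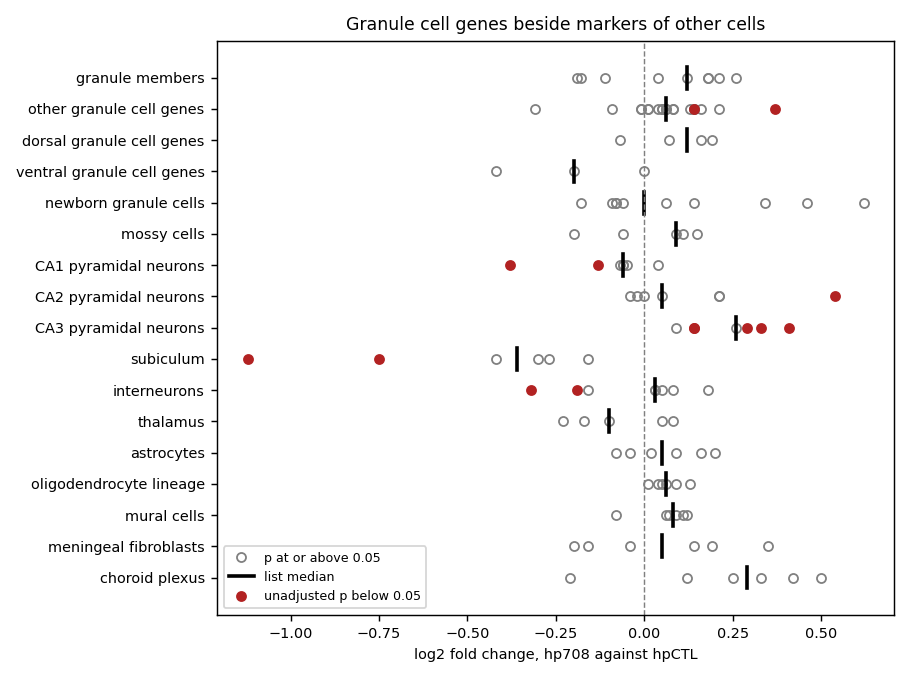
Log2 fold change of hp708 against hpCTL for every gene of 17 marker lists (1 circle per gene, filled where the unadjusted p was below 0.05, black bar at the list median). The 9 granule cell genes at the top have no filled circle and a median of 0.12, CA3 genes lie to the right of 0 and subiculum genes to the left.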

How the data were processed

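PolyA-RNA libraries of 8 mice were analysed. The authors mapped reads to GRCm39 with STAR 2.7.8a on GENCODE M26, counted them per gene with featureCounts 1.6.4 and deposited raw counts, without normalization. Samples were grouped by their labels, and names came from a later GENCODE release.

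The counts were then filtered by filterByExpr and analysed in edgeR 4.0.16 (TMM, quasi-likelihood test with 3 surrogate variables from svaseq, sva 3.50.0, Benjamini-Hochberg over 17252 genes). Log2 CPM used a prior count of 2. DESeq2 1.42.0 and other filters, scalings, surrogate variables and left-out libraries were alternatives. Functions were tested on simulated data. Libraries of a group differed by a chi-square per degree of freedom of at least 10.0, so none was a copy.

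The members and marker lists were chosen with earlier results of these data known. The text names the 9 members, at most the 3 genes of lowest p per other list, the 8 genes most like the members, and genes stated to be chosen after their values were seen.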

Additional observations from a re-analysis of the deposited data

How the results depend on the processing

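Of 243 fold changes of the 9 genes under 27 alternatives, 224 kept their direction and 19 reversed, and no alternative put a member at an FDR below 0.05. Stxbp6 reversed without the filter on low counts (-0.01). Leaving out 1 library with 3 surrogate variables gave Dsp -0.35 to 0.50 (below 0 also without hpCTL replicate 1 at -0.15, hpCTL replicate 3 at -0.22 and hp708 replicate 2 at -0.15), C1ql2 -0.05 to 0.37, Plk5 -0.37 to 0.12, Calb1 -0.51 to 0.03 and Stxbp6 -0.13 to 0.17. Without surrogate variables it gave Dsp -0.01 to 0.78, C1ql2 -0.09 to 0.24 (-0.08 without hpCTL replicate 4), Tdo2 -0.77 to 0.04 and Stxbp6 -0.06 to 0.14. The cause of these reversals was not tested.

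The number of the 9 genes at an unadjusted p below 0.05 was 0, and 1 in DESeq2 with 3 surrogate variables (Prox1, 5.02% of all genes) or with at least 10 counts in every library (Calb1, 5.72%). It was 2 with surrogate variables from TMM-scaled counts (Prox1 and Glis3), a setting chosen after seeing the data in which 13.3% of all genes passed. Leaving out 1 library gave 0 to 4. With 3 surrogate variables it was 2 without hpCTL replicate 1, hp708 replicate 2 or hp708 replicate 3 (Tdo2 and Calb1 each time, with 9.67%, 12.0% and 8.02% of all genes passing), 1 without hpCTL replicate 3 (C1ql2, 2.98% of all genes) or hpCTL replicate 4 (Prox1, 6.09%), and 4 without hp708 replicate 1 (Prox1, Dsp, Tdo2 and Calb1), where 12.2% of all genes passed. Each of these fits leaves 2 residual degrees of freedom. Without surrogate variables, which leaves 5, it was 2 without hp708 replicate 1 (Prox1 and Dsp, 3.42% of all genes), 1 without hp708 replicate 3 (Calb1, 2.07%) and 0 without any other library.

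Replicate numbers do not pair the mice, as deviations of same-numbered mice correlated between -0.04 and 0.02. With the replicate block the count was 1 (Prox1, 1.58% of all genes). The other granule cell genes, 2 at this threshold, gave 1 with 0, 1 or 2 surrogate variables, the likelihood ratio test, DESeq2 without surrogate variables, at least 10 counts in every library or the replicate block. They gave 0 to 5 with 1 library left out, 5 being without hp708 replicate 1 or 2 with 3 surrogate variables, where 12.2% and 12.0% of all genes passed. Groups of 1 member, Calb1, did not overlap without hp708 replicate 3, and 0 otherwise. Depth limits Tdo2 most, where counting alone gives a coefficient of variation of 12.7%.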
